A study of Mus musculus with 2 samples.

Results

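The contractile and myofibroblast genes described here are 7 genes of the 33904 in the deposited gene list, namely Acta2, Tagln, Actg2, Myl9, Cnn1, Myh11 and Lrrc15. They were taken by symbol from both count matrices, and all 7 were found. The set was chosen by earlier measured values of the same libraries, in which smooth muscle actin and Lrrc15 differed between the libraries, so differences between the libraries are given as a description of these genes. The first 6 encode parts of the actomyosin apparatus, and Lrrc15 encodes a leucine-rich repeat membrane protein of some fibroblasts. The question was in which cells the genes were counted, and whether the fibroblasts that carried Acta2 shared more with the connective tissue sheath of the hair follicle or with matrix-producing myofibroblasts.

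The samples are single-cell RNA-seq libraries of dorsal skin, 1 from Ctrl mice and 1 from mice of the AD model. Female C57BL/6J mice, 7 weeks old, had their back hair removed with depilatory cream 24 hours before the first treatment. Ctrl mice then received ethanol and AD mice received MC903 (calcipotriol, a vitamin D analogue that induces AD-like dermatitis) in ethanol, at 4.5 nmol per application, every day for 10 days on 2 cm × 2 cm of skin. Skin was taken on day 10. How many mice stand behind a library was not given in the sources used here, and both groups share the depilation and the ethanol. With 1 library per condition there is no test between conditions, and the 95% intervals given in brackets cover counting error alone (for sums of UMIs the exact Poisson interval, for shares the exact Clopper-Pearson interval).

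Contraction of smooth muscle and of myofibroblasts depends on filaments of actin that slide along myosin. The transcription factor SRF, with its partners of the myocardin family, activates most genes of this apparatus by binding a short element called the CArG box. In skin, the apparatus is known from the arrector pili muscle, the walls of vessels, pericytes, the dermal sheath that surrounds the follicle, and myofibroblasts of wounds and scars, and Acta2 alone does not tell these cells apart. Myh11, the smooth muscle myosin heavy chain, is more restricted to muscle and mural cells, whereas Lrrc15 is known from fibroblasts.

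The genes lie on several chromosomes (GRCm38, GENCODE release M21). Acta2, which encodes smooth muscle alpha-actin, lies on chromosome 19 at 34241090 to 34255590, minus strand. Actg2, which encodes the enteric smooth muscle gamma-actin, lies on chromosome 6 at 83512905 to 83536265, minus strand. The 2 actin proteins are near-identical, and whether reads of one gene were counted for the other was not tested. Tagln (transgelin, an actin-binding protein) and Cnn1 (calponin, an inhibitor of the myosin ATPase) both lie on chromosome 9, at 45929619 to 45936058 on the minus strand and at 22099216 to 22109630 on the plus strand. Myl9, a regulatory light chain of myosin, lies on chromosome 2 at 156775420 to 156781658, plus strand. Myh11 and Lrrc15 both lie on the minus strand of chromosome 16, at 14194535 to 14291372 and at 30269302 to 30283256.

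The RefSeq promoter table (GRCm38.p6) holds 4 of the 7 genes, and the 250 bases before the RefSeq start of transcription are shown for 3 of them. These were picked because they moved together between the libraries while a CArG box was not found in each. Positions are counted from the RefSeq start, which differs from the GENCODE gene ends given above. The Acta2 window lies mostly within the GENCODE span of the gene, and the Myl9 window reaches into that of Myl9. CArG boxes are in capitals. They were searched as 10 bases, CC and GG around 6 core bases that are A or T, with at most 1 core base allowed to be C or G. The pattern reads the same on both strands.
Acta2, chr19:34255374-34255623, minus strand: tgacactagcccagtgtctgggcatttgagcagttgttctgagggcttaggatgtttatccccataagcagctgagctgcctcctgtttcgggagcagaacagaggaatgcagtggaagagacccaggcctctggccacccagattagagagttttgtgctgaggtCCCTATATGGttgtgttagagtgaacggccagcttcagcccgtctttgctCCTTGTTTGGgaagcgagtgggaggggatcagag
Myl9, chr2:156775214-156775463, plus strand: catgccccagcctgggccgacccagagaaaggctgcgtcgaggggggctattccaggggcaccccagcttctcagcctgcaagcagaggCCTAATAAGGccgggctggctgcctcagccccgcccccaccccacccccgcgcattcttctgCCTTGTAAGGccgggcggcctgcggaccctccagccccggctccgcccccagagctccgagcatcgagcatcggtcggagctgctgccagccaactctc
Lrrc15, chr16:30283255-30283504, minus strand: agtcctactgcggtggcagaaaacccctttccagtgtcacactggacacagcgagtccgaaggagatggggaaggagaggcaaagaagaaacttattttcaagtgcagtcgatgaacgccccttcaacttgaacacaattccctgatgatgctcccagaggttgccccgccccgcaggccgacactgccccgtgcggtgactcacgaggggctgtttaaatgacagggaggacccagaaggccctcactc

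The Acta2 promoter held CCCTATATGG from −84 to −75 and CCTTGTTTGG from −34 to −25, counted from the start of transcription, each with 1 core base that is C or G. The Myl9 promoter held CCTAATAAGG from −161 to −152, with an all-A/T core, and CCTTGTAAGG from −99 to −90. No match was found in these windows of Lrrc15 and Cnn1, which says only that the letters are not there. Over 32851 promoters, searched with a further 50 bases after the start, 1.629% held a CArG box with an all-A/T core. In the same search, 9.984% held one with at most 1 core base that is C or G.

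Cells were assigned to gates by marker UMIs, none of them from the 7 genes. Pdgfra-positive dFBs needed a UMI of Pdgfra, the receptor for platelet-derived growth factor that defines dFBs in the study. Smooth muscle cells needed UMIs of at least 2 of 9 muscle genes, among them Des, Lmod1 or Pln, and pericytes needed Rgs5 with 1 further pericyte gene. A cell with a UMI of the defining gene of another class was left out of a gate. The level of a gene in a gate is its summed UMI count per 1000000 UMIs of the gated cells (CPM), and since 3′ tags are counted, CPM was not scaled by gene length.

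Of 12598 Ctrl barcodes (125184653 UMIs), 11399 were kept as cells, with a median of 7813 UMIs, and of 8778 AD barcodes (76106062 UMIs), 8179 were kept, with a median of 6330. Both libraries held 35 identical barcodes. The libraries stood apart before any gene was compared. Of 17 clusters whose commonest gate was Pdgfra-positive dFBs when ungated cells were left aside, 4 had at least 20 cells in both libraries. These held 360 of 6229 cells from Ctrl and 373 of 5817 from AD, counting cells outside the dFB gate. The clusters numbered 23, 26 and 35 lay mostly outside that gate, which held 59, 11 and 2 of their cells. Cluster 27 (74 Ctrl cells, 109 AD cells) had 136 cells in the gate. RNA of other cells also differed, since T cells, which do not make collagen, held 552 CPM of Col1a1 in Ctrl against 16.0 in AD. The libraries cannot be told apart from the conditions. A fall of a gene in a gate can reflect fewer cells of a kind or less RNA per cell, and the clusters below were used to describe which cells carried the UMIs.

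In Pdgfra-positive dFBs (4957 cells in Ctrl, 4729 in AD), the contractile genes and Lrrc15 were high in Ctrl and low in AD. Acta2 was counted with 13703 UMIs in Ctrl, or 286 CPM (281 to 291), but with 243 UMIs in AD, or 6.69 CPM (5.87 to 7.58), which is 42.7-fold lower and a log2 ratio of −5.42 (−5.61 to −5.23). Lrrc15 reached 287 CPM (13780 UMIs, 283 to 292) and 2.94 CPM (107 UMIs, 2.41 to 3.56), 97.6-fold lower, a log2 ratio of −6.61 (−6.90 to −6.33).

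The other genes followed the same order of libraries. Tagln reached 160.0 CPM in Ctrl against 5.86 in AD, a log2 ratio of −4.77 (−4.97 to −4.57). Myl9 was counted at 133 and 3.85 CPM, a ratio of −5.11 (−5.36 to −4.87). Actg2, at 42.2 and 0.440 CPM, gave −6.58 (−7.39 to −5.88), and Myh11, at 48.4 and 0.935 CPM, gave −5.69 (−6.23 to −5.21). Cnn1 was low in both, with 260 UMIs (5.42 CPM) in Ctrl and 1 UMI (0.0275 CPM) in AD, and did not reach the 20 CPM in either library that was required for a ratio to be counted. All 6 counted genes were at least 2 times lower in AD, and none was higher. Over the 7031 genes that reached 20 CPM in dFBs, 12.9% were at least 2 times lower in AD and 7.96% at least 2 times higher. The median log2 ratio was −5.56 over the 6 genes and −0.05 over the 7031. The 6 genes passed the level filter through their Ctrl values, and they were chosen with this difference known.

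**Figure D1:**
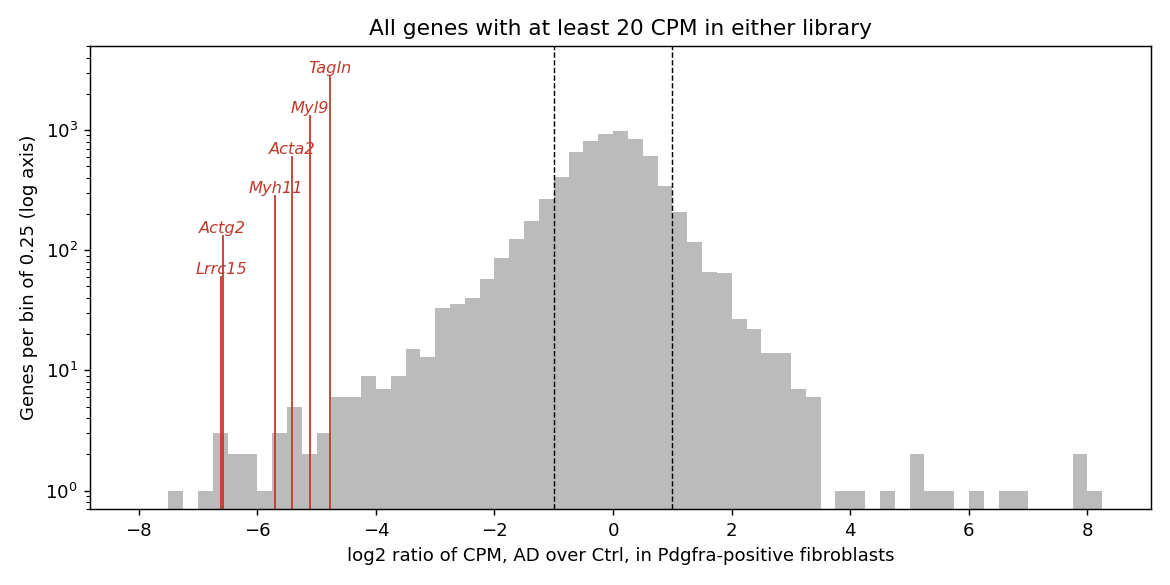
Histogram of the log2 ratio of CPM in AD over Ctrl in Pdgfra-positive dFBs (x axis, log2 units) over the 7031 genes that reached 20 CPM in a library, with the number of genes per bin of 0.25 on a log y axis and dashed lines at a 2-fold difference. The 6 counted genes are marked by red lines, whose heights only separate the names, and they lie between −6.61 and −4.77.

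The share of dFBs with at least 1 UMI fell less than the level. Cells with a UMI of Acta2 made up 16.6% of the dFBs in Ctrl against 2.45% in AD, those with Tagln 15.7% against 3.07%, those with Myl9 35.0% against 2.54%, and those with Lrrc15 22.0% against 1.29%. The median depth was 8884 UMIs in Ctrl and 6855 in AD. In T cells, which served as background, the shares of Acta2 were 3.88% and 0.322% with median depths of 3080 and 5179, and its levels were 12.7 and 0.534 CPM. Macrophages held 9.19 CPM of Acta2 in Ctrl against 3.33 in AD, with shares of 4.66% and 3.07%, so the AD share in dFBs was not above that in AD macrophages. With each cell thinned to 1000 UMIs, Acta2 remained in 6.59% of the dFBs in Ctrl (5.92 to 7.33) against 0.719% in AD (0.496 to 1.01), and Lrrc15 in 10.3% (9.44 to 11.2) and 0.240% (0.120 to 0.429).

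**Figure D2:**
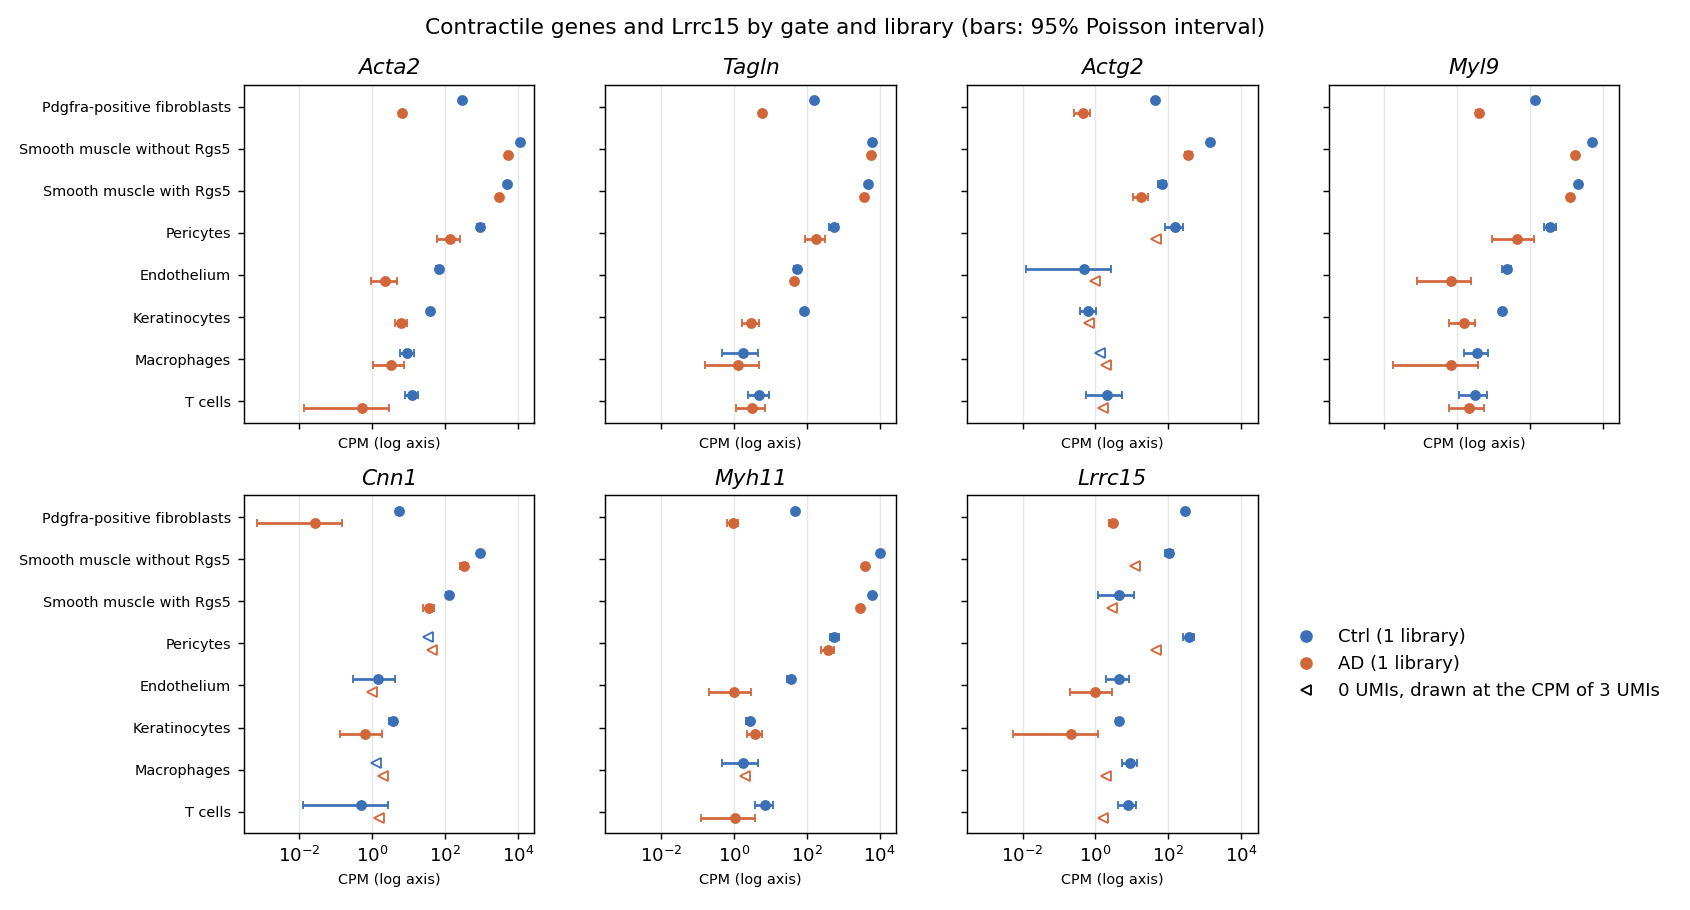
CPM of each gene (x axis, log scale) in 8 gates (y axis) in the Ctrl library (blue) and the AD library (orange), with bars for the 95% Poisson interval, which covers counting error only, and open triangles for 0 UMIs, drawn at the CPM of 3 UMIs. In dFBs every gene lies further left in AD, whereas in both smooth muscle groups Tagln nearly overlaps between the libraries.

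The UMIs of dFBs came from few cells. Clusters 4 and 32 (numbers given by the clustering, chosen here after their values were seen) held 741 of the Ctrl dFBs, or 14.9%, and these held 79.9% of the Acta2 UMIs, 79.0% of those of Tagln, 77.3% of those of Actg2, 54.7% of those of Myl9 and 92.2% of those of Lrrc15. The same cells held 2.24% of the Myh11 UMIs and 11.2% of the Cnn1 UMIs. Most Myh11 and Cnn1 UMIs of the dFB gate (88.4% and 81.9%) lay instead in 16 cells, 0.323% of the gate, of clusters 19 and 34, which were led by mural and smooth muscle genes, although each of these cells carried a Pdgfra UMI. These 16 cells held 15.8% of the Acta2 UMIs and 0.0798% of the Lrrc15 UMIs. Without clusters 19 and 34, Myh11 stood at 5.63 CPM in Ctrl dFBs, near its 7.10 CPM in Ctrl T cells, and at 0.936 CPM in AD dFBs.

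With clusters 4, 19, 32 and 34 all left out, the Ctrl level of Acta2 in dFBs was 15.4 CPM against 5.93 CPM in AD, a log2 ratio of −1.38 (−1.61 to −1.15), and Tagln stood at 13.9 against 5.24 CPM, a ratio of −1.41. In Ctrl T cells these genes stood at 12.7 and 5.07 CPM, so that Acta2 was close to the T cell level and Tagln was above it. In AD T cells they stood at 0.534 CPM (1 UMI) and 3.20 CPM (6 UMIs). In AD macrophages Acta2 stood at 3.33 CPM (5 UMIs) and Tagln at 1.33 CPM (2 UMIs). These values were lower than those of the AD dFBs but rest on few UMIs. The ratios of Acta2 and Tagln above are not corrected for this background, which differed between the libraries. Only Myl9 and Lrrc15 still reached 20 CPM. Myl9 remained at 50.8 CPM in Ctrl against 3.69 CPM in AD (−3.78), and Lrrc15 at 27.5 against 2.70 CPM (−3.35). The share of these UMIs that is free RNA was not tested.

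Cluster 4 (852 Ctrl cells and 10 AD cells) was the main Ctrl source of fibroblast Acta2. Over all its Ctrl cells, Acta2 stood at 1207 CPM (1185 to 1229.5), Lrrc15 at 1412 CPM (1388 to 1436), Tagln at 671 CPM, Myl9 at 386 CPM and Actg2 at 167 CPM, while Myh11 stood at 5.59 CPM and Cnn1 at 3.37 CPM. A UMI of Acta2 was found in 63.4% of its cells and of Lrrc15 in 87.1%. Lrrc15 led the genes that set cluster 4 apart from all other cells, followed by Col11a1, Acan, Fbn2, Stmn2, Adamts18, Col12a1, Tnmd, Tnn and Tenm3, most of them genes of the extracellular matrix. Cluster 32 (79 Ctrl cells, none in AD) was led by genes of the cell cycle and held Acta2 at 994 CPM, Lrrc15 at 1030.2 CPM and Myh11 at 2.29 CPM. The 7 genes were kept out of the clustering, but Col11a1 and the others were not, so the leading genes describe the cluster and test nothing.

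Neighbouring fibroblast clusters held far less. Cluster 31 (85 Ctrl cells, 26 of them in the dFB gate) held Acta2 at 135 CPM and Lrrc15 at 169 CPM. A UMI of each was found in 47.1% of its cells. The 74 Ctrl cells of cluster 27 held Lrrc15 at 96.2 CPM but Acta2 at 2.24 CPM. Cluster 9 (680 Ctrl cells, 1 AD cell), led by genes of the dermal papilla such as Hhip, Rspo3 and Corin, held Acta2 at 50.1 CPM, Lrrc15 at 52.6 CPM and Myl9 at 105 CPM. The large Ctrl clusters 0, 2 and 18 held Acta2 at 13, 9.34 and 5.98 CPM and Lrrc15 at 30.3, 8 and 12.2 CPM. Among the fibroblast clusters with at least 20 AD cells, the highest AD level was in cluster 8 (716 AD cells and 9 Ctrl cells), with Acta2 at 47.6 CPM (40.1 to 56.0), Tagln at 35.9 CPM, Myl9 at 30.3 CPM and Lrrc15 at 26.9 CPM. A UMI of Acta2 was found in 7.26% of its cells (5.47 to 9.42). The 9 AD dFBs of clusters 4 and 32 were higher, with Acta2 at 432 CPM (25 UMIs), Tagln at 242 CPM (14 UMIs) and Lrrc15 at 156 CPM (9 UMIs). The dFBs of clusters 8 and 9 made up 11.2% of the AD dFB gate and held 51.9% of its Acta2 UMIs and 70.1% of its Lrrc15 UMIs. Cluster 8 was led by Klhl33, Rasd1 and Spp1, and Prlr, Dkk2 and Prdm1 were among its 10 leading genes. Clusters 1, 3, 5 and 6, the other large fibroblast clusters of AD, held Acta2 between 1.78 and 3.57 CPM.

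**Figure D3:**
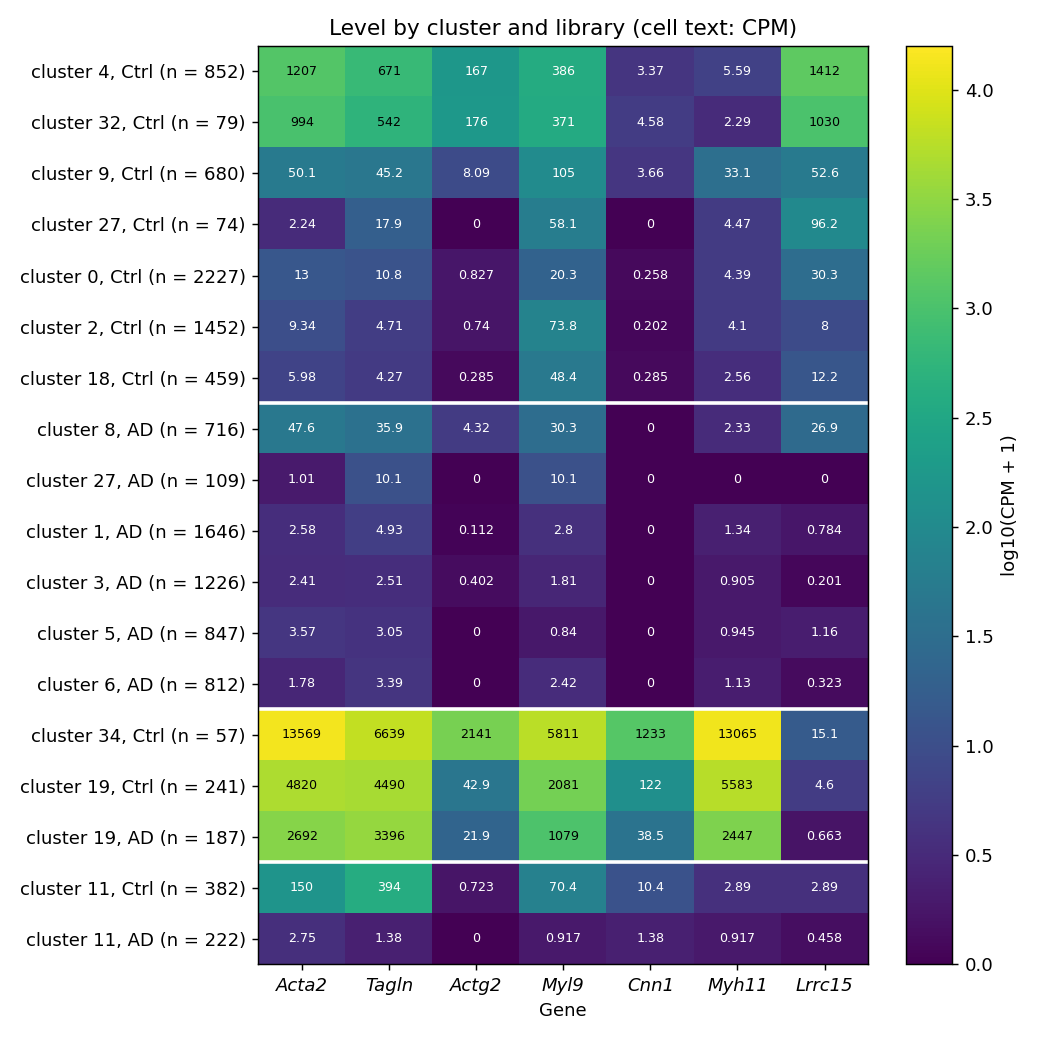
Heat map of the 7 genes (x axis) over clusters in the library named at the left (y axis, with the number of cells), coloured by log10(CPM + 1) and with the CPM written in each cell. Ctrl clusters 4 and 32 are high in Acta2 and Lrrc15 and low in Myh11, clusters 34 and 19 are high in Acta2 and Myh11 and low in Lrrc15, and no AD fibroblast cluster drawn exceeds 47.6 CPM of Acta2.

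To describe cluster 4 beside sheath cells and myofibroblasts, lists of genes known for each were compared over 6 Ctrl fibroblast clusters (0, 2, 4, 9, 18 and 27). Clusters 31 and 32 were not among them. The lists were written with earlier results of these data known. Cluster 4 was chosen for its Acta2 and Lrrc15, and Col11a1 was among its leading genes, so the counts below describe it and test nothing. Over the 8569 genes that reached 20 CPM in any of these clusters, 20.1% were highest in cluster 4. Of 8 dermal sheath genes, 4 were highest in cluster 4, namely Col11a1 (a fibrillar collagen, 1449 CPM against at most 832 CPM elsewhere), Mylk (myosin light chain kinase, 270.0 against 78.0 CPM), Mef2c (a transcription factor, 591 against 383 CPM) and the integrin subunit Itga8 (68.5 against 47.0 CPM). Tnmd was higher in cluster 27, at 1465 against 336 CPM. Of 16 myofibroblast matrix genes that reached 20 CPM, 3 were highest in cluster 4. These were Postn (periostin, 2018 against 1670.4 CPM), Col12a1 (655 against 152 CPM) and Adam12 (46.2 against 35.0 CPM). A share of 3 in 16 is near that over all genes. Others of that list stood lower there, such as Fn1 (fibronectin, 305 against 2827 CPM in cluster 2), Fap (21.4 against 165 CPM in cluster 18) and Cthrc1 (8.96 against 35.9 CPM in cluster 18). None of 12 dermal papilla genes and none of 4 fibroblast genes was highest in cluster 4. Of 25 genes of the contractile programme, 14 were, among them Tpm2 (tropomyosin, 447 against 152 CPM), Actn1 (154 against 76.0 CPM) and Cald1 (1053 against 748 CPM). Mylk and Itga8 are in both the sheath list and the contractile list and were counted under each.

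The same lists differed in how they moved in dFBs between the libraries. Over all 7031 genes that reached 20 CPM in dFBs, 12.9% were at least 2 times lower in AD and 7.96% at least 2 times higher. Of 22 contractile programme genes that reached 20 CPM, 9 were at least 2 times lower in AD and none higher. Their median log2 ratio was −0.70, against −0.05 over all genes. The lowest were Ppp1r14a, an inhibitor of myosin phosphatase (43.2 and 0.990 CPM, −5.45), and Tpm2 (150.4 and 6.55 CPM, −4.52), and the highest were the integrin subunit Itga1 (0.17) and caldesmon, Cald1 (616 and 672 CPM, 0.13). Of 12 myofibroblast matrix genes, 5 were lower and 4 higher, with a median of −0.48. Postn (1096 and 63.7 CPM, −4.10) and Fn1 (1456 and 231 CPM, −2.66) were the lowest, whereas tenascin C, Tnc (24.8 and 178 CPM, 2.84), and lysyl oxidase, Lox (173 and 823 CPM, 2.25), were the highest. Both groups of matrix genes are therefore in the same list and moved in opposite directions. Of 8 dermal sheath genes, 4 were lower and 1 higher, with a median of −1.34. Col11a1 (318 and 11.9 CPM, −4.74) and Mylk (−2.29) were the lowest, and Itga5 (1.19) and Abi3bp (−0.07) the highest. Of 10 dermal papilla genes, 9 were lower and none higher, with a median of −2.71, from Sox18 (−6.46) and Sostdc1 (−4.78) to Lef1 (−1.64) and Prdm1 (0.36).

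Other changes of the dFBs lay beside these ratios. Col1a1 was 11609 CPM in Ctrl against 766 in AD (−3.92), Lum at −3.51 and Dcn at −0.52, and the cell cycle gene Mki67 at −4.65. In keratinocytes, 8 genes of the follicle matrix and inner root sheath summed to 555 CPM in Ctrl against 228 in AD, and Mki67 stood at 504 and 64.8 CPM. Gata3 alone held 235 and 159 CPM of these sums. Tchh stood at 37.4 and 33.4 CPM, and the others of the list differed more between the libraries. Krt25, a keratin of the inner root sheath, was counted at 83.5 CPM in Ctrl and had 0 UMIs in AD. The part of follicle content in the result was not tested.

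Within single dFBs, the contractile genes and Lrrc15 were found together. In Ctrl, Acta2 was found in 50% of the 1092 dFBs with a Lrrc15 UMI (47.0 to 53.0) and in 7.12% of the 3865 without (6.32 to 7.97), where the median depth was 11540 and 8380. Likewise the shares were 51.7% and 5.49% for Tagln, 30.3% and 1.22% for Actg2, and 62.9% and 27.1% for Myl9. Myh11 was found in 4.21% of dFBs with Lrrc15 (3.1 to 5.58) and in 3.62% of those without (3.06 to 4.26), intervals that overlap. In AD, 61 dFBs had a Lrrc15 UMI, and Acta2 was found in 32.8% of these (21.3 to 46.0) and in 2.06% of the 4668 others, at median depths of 6593 and 6861.5 UMIs. The AD dFBs with Lrrc15 were therefore few, but they carried Acta2 more often than the others, as in Ctrl.

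Cells rich in Acta2 fell into groups that Lrrc15 and Myh11 told apart. At least 5 Acta2 UMIs were counted in 725 Ctrl cells (6.36% of all kept cells) and 126 AD cells (1.54%). In Ctrl, 362 of the 725 cells had a UMI of Lrrc15 and none of Myh11. Of these, 92.8% had Pdgfra, 0.829% had Rgs5, none had Des, and 94.5% lay in clusters 4 and 32. A further 259 cells had Myh11 and no Lrrc15, of which 14.7% had Pdgfra, 71.0% had Rgs5, 81.1% had Des, and 93.4% lay in clusters 19 and 34. Both genes were found in 33 cells and neither in 71. In AD, 6 of the 126 cells had Lrrc15 without Myh11 (4.76%, 1.77 to 10.1), 114 had Myh11 without Lrrc15 (90.5%, 84.0 to 95), 1 had both and 5 had neither. The bound of 5 UMIs is a range and not a cell type, and 114 Ctrl cells and 30 AD cells held between 4 and 6 Acta2 UMIs. At a bound of 10 UMIs, 275 of 564 Ctrl cells and 2 of 100 AD cells had Lrrc15 without Myh11.

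**Figure D4:**
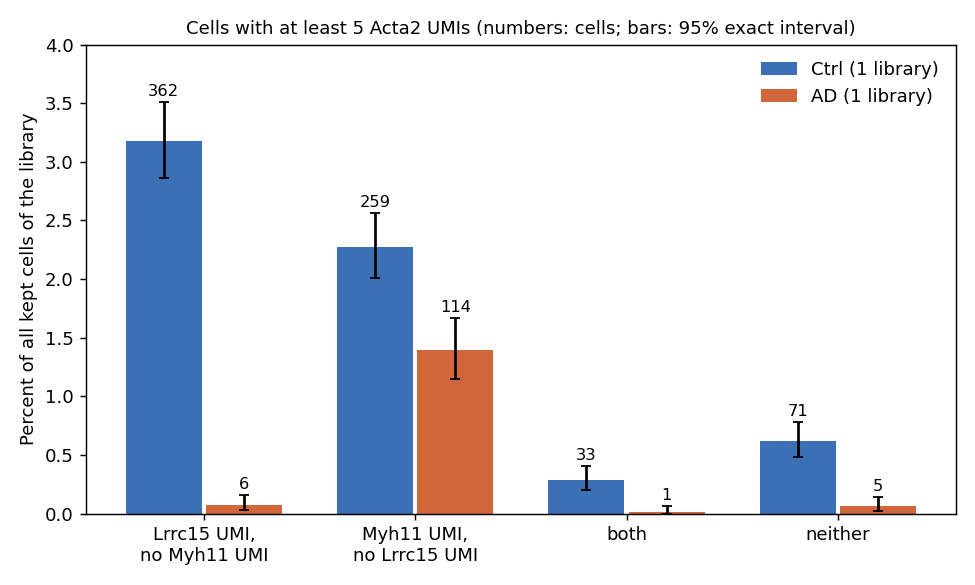
Cells with at least 5 Acta2 UMIs as a percent of all kept cells of a library (y axis, from 0), by whether a UMI of Lrrc15 or Myh11 was found (x axis), with bars for the 95% exact interval and the number of cells above each bar. The group with Lrrc15 and no Myh11 held 362 cells in Ctrl and 6 in AD, and the group with Myh11 and no Lrrc15 held 259 and 114.

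In smooth muscle cells (245 in Ctrl, 157 in AD), the contractile genes were high in both libraries. Acta2 reached 7748 CPM in the Ctrl cells (7611 to 7888) against 3509.5 in the AD cells (3409 to 3613), giving a log2 ratio of −1.14 (−1.19 to −1.09). Myh11 stood at 7815 and 3013 CPM, a ratio of −1.38 (−1.43 to −1.32), and Myl9 at 3269 and 1312 CPM, a ratio of −1.32. Actg2 (608 and 82.8 CPM, −2.88) and Cnn1 (442 and 92.7 CPM, −2.25) differed more. Tagln differed least, at 5352 and 4187 CPM, a ratio of −0.35 (−0.40 to −0.30). Of the 7 genes, 6 were at least 2 times lower in AD and none was higher, against 11.3% lower and 6.52% higher over 6870 genes. Acta2 no longer passed 2-fold when cells with a defining gene of another class were kept (−0.85), as a mean over cells (−0.92) or after thinning to 1000 UMIs per cell (−0.84). The sixth is Lrrc15, with 70 UMIs (45.0 CPM) in Ctrl and 0 in AD, at least 19.6-fold lower when 3 UMIs are taken as the floor of the AD gate. Its Ctrl UMIs lay mostly in the 16 gated cells outside clusters 19 and 34, where it stood at 517 CPM, against 4.2 CPM in the 229 others.

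The spread among smooth muscle cells was wide. In Ctrl, the cells' own Acta2 level had a median of 4430.2 CPM with quartiles at 1942 and 8471 CPM, and in AD a median of 1363 CPM with quartiles at 50 and 4757 CPM. For Tagln the medians were 4485 and 2015 CPM. The ranges overlapped, from 0 to 435 Acta2 UMIs per cell in Ctrl and from 0 to 259 in AD. The share of cells with an Acta2 UMI was 89.4% in Ctrl against 75.8% in AD, although the AD cells were deeper (medians of 5399 and 7334 UMIs).

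The gate mixed cells with and without Rgs5, a gene of pericytes and vascular smooth muscle, and the cells were split by it after the values were seen. Cells with Rgs5 numbered 178 in Ctrl and 120 in AD. Among them Acta2 stood at 4993 and 3071 CPM (−0.70, −0.77 to −0.64), Myh11 at 6019.5 and 2812 CPM (−1.10), Tagln at 4701 and 3810.3 CPM (−0.30) and Myl9 at 2115 and 1215 CPM (−0.80). Actg2 (68.2 and 18 CPM) and Cnn1 (127 and 36.1 CPM) were low. Of 6 genes that reached 20 CPM, 3 were at least 2 times lower (Actg2, Cnn1 and Myh11) and none higher, against 11% lower and 7.80% higher over 6745 genes. Cells without Rgs5 numbered 67 and 37, and held Acta2 at 11783 and 5340 CPM, Myh11 at 10445 and 3852 CPM, Actg2 at 1399 and 353 CPM, Cnn1 at 904 and 329 CPM and Tagln at 6306 and 5760.3 CPM. Actg2 and Cnn1 were thus higher in the cells without Rgs5 in both libraries.

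The clusters gave a different split, since cluster 34 held fewer gated cells (37 in Ctrl, 7 in AD) than the group without Rgs5 (67 and 37). Cluster 34 (57 Ctrl cells, 8 AD cells), led by Des, Myh11, Mylk and Synpo2, held the highest Ctrl levels of all contractile genes, with Acta2 at 13569 CPM, Myh11 at 13065 CPM, Tagln at 6639 CPM, Myl9 at 5811 CPM, Actg2 at 2141 CPM and Cnn1 at 1233 CPM, and Lrrc15 at 15.1 CPM. Cluster 19 (241 Ctrl cells, 187 AD cells), led by Rgs5, Sparcl1 and Notch3, was present in both libraries. It held 4820 CPM of Acta2 in Ctrl against 2692 in AD, Tagln at 4490 and 3396 CPM, Myh11 at 5583 and 2447 CPM, and Lrrc15 at 4.60 and 0.663 CPM. Cells of cluster 34 made up 15.1% of the Ctrl smooth muscle gate (37 cells) and 4.46% of the AD gate (7 cells). Within the gated cells of cluster 19, Acta2 stood at 5435 and 3188 CPM and Actg2 at 49.3 and 17.2 CPM.

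The pericyte gate held 19 Ctrl cells and 16 AD cells, since cells with Rgs5 that also carried muscle genes had entered the smooth muscle gate first, and its values rest on few UMIs. Acta2 had 83 UMIs in Ctrl, or 942 CPM (750.0 to 1167), against 9 UMIs in AD, or 134 CPM (61.5 to 255), which gives a log2 ratio of −2.81 (−3.99 to −1.81). Tagln stood at 556 and 179 CPM (−1.63), and Myh11 at 579 and 388 CPM (−0.58, −1.32 to 0.13), an interval that includes 0. With cells that carried a defining gene of another class kept in the gate, the ratio of Acta2 was −0.51 and those of Tagln (0.41) and Myh11 (1.18) turned direction. Cnn1 had 0 UMIs in both libraries. With 3 cells taken as the limit of a 0, up to 15.8% of Ctrl cells and 18.8% of AD cells could carry a UMI. The exact interval reaches further. Such a bound limits cells with a UMI and not cells that express the gene. Lrrc15 had 32 UMIs in 3 Ctrl cells and none in AD. Without these 3 cells, Acta2 stood at 492 CPM in Ctrl (−1.87, −3.12 to −0.78) and Myh11 at 761 CPM (−0.97).

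Across all kept cells, Ctrl and AD therefore differed in which cells held the UMIs of a gene. For Acta2, dFBs held 43.2% of the Ctrl UMIs and 4.25% of the AD UMIs, and smooth muscle cells held 38% and 80.0%. For Myh11, dFBs held 13.1% and 0.728%, and smooth muscle cells 68.6% and 84.1%. For Lrrc15, dFBs held 83.7% of 16470 Ctrl UMIs and 79.3% of 135 AD UMIs. Over all kept cells Acta2 amounted to 301 CPM in Ctrl against 92.8 in AD (−1.70), Tagln at 205 and 111 CPM (−0.88), and Lrrc15 at 157 and 2.19 CPM (−6.16).

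Other gates also held the genes. In keratinocytes, Tagln reached 81.9 CPM (78.5 to 85.4) in Ctrl against 3.01 in AD (1.65 to 5.06), and Acta2 at 38.8 and 6.24 CPM. In endothelium, Acta2 stood at 67.7 and 2.32 CPM, whereas Tagln stood at 53.2 CPM (43.7 to 64.1) and 45.8 CPM (38.5 to 54.1), a log2 ratio of −0.22 (−0.59 to 0.16) whose interval includes 0. The skeletal muscle gate of Ctrl held Acta2 at 2377 CPM and Myh11 at 3419 CPM, but all of its 545 Myh11 UMIs lay in 2 of its 31 cells, which belonged to cluster 34. In the other 29 cells Myh11 was at 0 and Acta2 at 326 CPM.

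Over 55 profiles of 37 clusters by library with at least 20 cells, the genes whose log2(CPM + 10) was most like that of Acta2 were Tagln (Pearson r = 0.958), Myl9 (0.921), Nexn (0.875), Klhl23 (0.862) and Casq2 (0.857), out of 6764 genes. For Lrrc15 they were Adamts18 (0.875), Acan (0.871), Col11a1 (0.856), Foxd2os (0.851) and Fbn2 (0.851), and for Myh11 they were Lmod1 (0.971), Myocd (0.933), Jph2 (0.930) and Irag1 (0.920). Acta2 gave 0.830 with Myh11 and 0.432 with Lrrc15, whereas Lrrc15 and Myh11 gave 0.00463. These correlations describe profiles that share libraries and depth and carry no test.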

How the data were processed

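For 1 Ctrl and 1 AD library, the authors deposited UMI counts per gene and barcode, without normalization, from Cell Ranger on 10x 3′ libraries. The methods name version 6.0.0, the matrix headers 5.0.0 and the submitters' processing notes 3.1.0, with Seurat 4.3.0 or 5.0 for later steps. The reference was mm10, and 1429 of 33904 identifiers are not in GENCODE M21.

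The study's filter (200 to 6000 genes, at most 10% mitochondrial reads) was applied, which removed 1199 Ctrl and 599 AD barcodes. The 7 genes and all lists were chosen with earlier results of these data known. The genes named were the 7 genes, the extremes of each list (2 with the highest and 2 with the lowest log2 ratio among genes with at least 20 CPM in dFBs), and the 5 most alike in profile to Acta2, Lrrc15 and Myh11, of which 1 is not reported here. Other genes were named after their values were seen, as leading genes of clusters or as examples. Gates used marker UMIs alone, and the defining genes were Pdgfra, Rgs5, Pecam1, Ptprc, Epcam and Sox10. In the T cell gate, the gamma constant gene is listed as Trgc1. Cells were clustered with scanpy 1.11.5 (Python 3.11.15, leidenalg 0.10.2) on 2000 variable genes without the 7 genes, with 30 principal components, 20 neighbours and a Leiden resolution of 1, and no batch correction. Scrublet called 395 Ctrl doublets (3.465%) and 0 in AD, where it did not work, so doublets were kept. Samples were compared as CPM without a test. The ratio was checked on simulated Poisson counts, in which all 200 changed genes came out within 0.25 of the true log2 ratio. These genes had at least 100 CPM in Ctrl dFBs, and their changes were smaller than those of the 7 genes in the whole dFB gate. The check therefore covers the arithmetic alone and not differences between libraries. Alternatives covered filters, gates, doublets, scaling, thinning and clusters. No other values of the series were analysed here.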

Additional observations from a re-analysis of the deposited data

How the results depend on the processing

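Each value was recomputed under 9 alternatives set out at the start and 7 added after the data were seen. Of 155 values under the first, 96 kept their value, 57 moved and 2 reversed, and of those under the added ones 30 kept it and 26 moved. A ratio kept its value if it stayed within the counting interval. The number of genes at least 2 times lower kept its value if it stayed within a set factor. All 60 of 60 ratios in dFBs stayed at or below −1 under the alternatives set out at the start. The cause of a shift was not tested. In pericytes, Tagln (0.41) and Myh11 (1.18) turned higher in AD when cells with another class's defining gene were kept, where Acta2 was −0.51. Acta2 in pericytes was −4.25 as a mean over cells and −4.03 after thinning. In smooth muscle cells, Acta2 was −1.28 with all barcodes, −0.85 without the exclusion, −0.92 as a mean over cells, −0.84 after thinning, −1.06 when centred on the median gene, −1.58 with clusters in place of gates and −0.70 in cells with Rgs5, so that the 2-fold difference was lost under 4 of these. In dFBs, Acta2 was −3.78 without the exclusion, −4.25 as a mean over cells, −3.92 after thinning, −5.21 with clusters, −5.19 without clusters 19 and 34, −3.56 without clusters 4 and 32 and −1.38 without all 4. Lrrc15 in dFBs was −5.84 as a mean over cells, −6.31 after thinning, −3.36 without clusters 4 and 32 and −3.35 without all 4. The count of the 7 genes at least 2 times lower in dFBs was 2 without these 4 clusters, against 6. Pericytes have no value with clusters in place of gates, since they were the commonest gate of no cluster. No paired analysis was possible because each condition has 1 library.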

Other observations

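Cluster 11, of keratinocytes, was led by Sox9, Krt15 and Col17a1, genes of the outer root sheath and basal layer, and held 382 Ctrl cells and 222 AD cells. There Tagln had 1633 UMIs in Ctrl, or 394 CPM (375 to 413), but 3 UMIs in AD, or 1.38 CPM (0.284 to 4.02), and Acta2 at 150 CPM (138 to 162) and 2.75 CPM (1.01 to 5.99). A UMI of Tagln was found in 26.4% of the Ctrl cells (22.1 to 31.2) and 1.35% of the AD cells. Myl9 stood at 70.4 and 0.917 CPM, Cnn1 at 10.4 and 1.38 CPM, and Myh11 at 2.89 and 0.917 CPM. Lrrc15 had 12 UMIs in Ctrl and 1 in AD, so the Ctrl level of Tagln and Acta2 in this cluster was not accompanied by Lrrc15.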
